A study of Homo sapiens with 10 samples.

Results

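PAX genes encode transcription factors that bind DNA through a paired domain. The 8 genes described here, PAX1 to PAX8, were chosen by name, as the rows of the RNA-seq count table with these gene symbols and the promoter baits that hold their gene starts. They are 8 of the 31017 genes in the count table, and their baits are 8 of 21833 baits in the interaction lists. H9 human embryonic stem cells (ESCs), an established pluripotent line, were compared with neuroectodermal cells (NECs) derived from the same line and harvested on day 7 of differentiation. No agent or allele beyond the differentiation itself separates the groups. Each cell type had 2 biological replicates for RNA-seq and 2 for Promoter Capture Hi-C (PCHi-C), which maps contacts of promoter fragments. Both groups come from 1 cell line, so the replicates do not sample donors.

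The family falls into groups of close relatives. PAX3 and PAX7 carry a paired domain and a full homeodomain and act in the dorsal neural tube, the neural crest and muscle progenitors. PAX6 and PAX4 also carry both domains; PAX6 is a master regulator of eye and forebrain development, and PAX4 acts in the endocrine pancreas. PAX2, PAX5 and PAX8 share a truncated homeodomain and act at the border of midbrain and hindbrain, and also in kidney and ear (PAX2), B cells (PAX5) and thyroid (PAX8). PAX1 lacks a homeodomain and marks the sclerotome, the somite part that forms vertebrae.

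Library totals in RNA-seq were 19234087 and 25356382 counts for ESC replicates 1 and 2, and 20793224 and 24323762 for NEC replicates 1 and 2. Spearman correlations over the 17564 genes tested were 0.994 between the ESC libraries, 0.991 between the NEC libraries and 0.867 to 0.897 between cell types. The labelled cell types were set against markers, in lists chosen with earlier results of these data known. By the thresholds given below, 9 of 10 pluripotency genes were called lower in NECs, against 9.68% of all genes tested. Of 10 neuroectoderm genes, 7 were called higher, against 11.4% of all genes tested. The ESC libraries shared one sequencing lane and the NEC libraries another, so lane and cell type cannot be told apart. In these bulk samples, fewer cells of a type and less RNA per cell cannot be told apart either.

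The promoter sequences of 5 members are shown because they are the starts to which baits were matched, and because these members span the range from silent to strongly expressed. Each is the window from 250 bases before to 50 bases after the gene start in GRCh37, 5′ to 3′ on the strand of the gene. Capitals mark the GC box (GGGCGG), the CCAAT box (CCAAT) and the TATA box (TATAAA), each on either strand, and the HindIII site (AAGCTT). No base in the 8 PAX windows lies in more than 1 of these motifs.
PAX6, chr11:31839460-31839759, minus strand: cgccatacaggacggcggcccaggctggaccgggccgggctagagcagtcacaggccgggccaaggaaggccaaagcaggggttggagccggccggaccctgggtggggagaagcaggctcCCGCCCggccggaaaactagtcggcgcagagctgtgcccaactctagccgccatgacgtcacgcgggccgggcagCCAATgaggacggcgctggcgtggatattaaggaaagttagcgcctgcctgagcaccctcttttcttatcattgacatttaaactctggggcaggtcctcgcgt
PAX3, chr2:223163666-223163965, minus strand: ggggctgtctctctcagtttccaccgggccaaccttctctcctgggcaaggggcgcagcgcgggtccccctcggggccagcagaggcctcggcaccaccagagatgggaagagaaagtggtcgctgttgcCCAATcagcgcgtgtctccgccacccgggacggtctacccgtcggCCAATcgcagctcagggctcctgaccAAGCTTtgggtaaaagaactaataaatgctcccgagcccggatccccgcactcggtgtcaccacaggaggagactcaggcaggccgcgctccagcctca
PAX8, chr2:114036478-114036777, minus strand: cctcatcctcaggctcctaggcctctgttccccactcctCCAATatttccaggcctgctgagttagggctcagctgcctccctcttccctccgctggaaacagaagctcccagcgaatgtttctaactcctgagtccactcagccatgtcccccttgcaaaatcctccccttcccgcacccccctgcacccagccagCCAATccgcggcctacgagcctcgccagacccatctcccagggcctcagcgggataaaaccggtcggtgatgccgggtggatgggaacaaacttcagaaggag
PAX2, chr10:102495110-102495409, plus strand: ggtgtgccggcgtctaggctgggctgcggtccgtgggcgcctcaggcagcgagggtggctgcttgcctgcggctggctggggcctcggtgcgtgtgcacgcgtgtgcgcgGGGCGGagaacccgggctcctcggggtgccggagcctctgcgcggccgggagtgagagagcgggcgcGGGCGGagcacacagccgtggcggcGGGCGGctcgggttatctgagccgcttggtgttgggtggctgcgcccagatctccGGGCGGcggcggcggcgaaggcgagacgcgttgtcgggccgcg
PAX4, chr7:127255933-127256232, minus strand: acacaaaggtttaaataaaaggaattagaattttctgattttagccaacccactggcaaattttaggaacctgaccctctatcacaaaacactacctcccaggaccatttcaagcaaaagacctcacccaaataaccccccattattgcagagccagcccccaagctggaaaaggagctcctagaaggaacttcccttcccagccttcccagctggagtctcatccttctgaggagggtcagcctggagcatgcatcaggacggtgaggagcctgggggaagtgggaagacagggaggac

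The windows differ in composition. The PAX2 window holds 43 CpG dinucleotides and 4 GC boxes, and 94.2% of 18798 windows of protein-coding genes hold fewer CpGs. In contrast, PAX4 has 1 CpG, and 2.38% of windows hold fewer. These 2 windows lie at the gene starts of the count table, chr10:102495360 and chr7:127255982. The Ensembl canonical transcripts start elsewhere, at 102505339 for PAX2 and 127258196 for PAX4. That of PAX6 also starts outside its window, at 31832870. The contrast is therefore between annotated gene starts, not between the promoters of the canonical transcripts. The other members lie between, from 11 CpGs in PAX8 to 28 in PAX5, against a median of 18. Over all windows, 52.4% hold a GC box, 35.7% a CCAAT box and 10.2% a TATA box. PAX5 is the member with a TATA box and has 1 GC box, while PAX6 and PAX1 each have 1 GC box and 1 CCAAT box. PAX3 and PAX8 each have 2 CCAAT boxes and no GC box, and PAX7 has none of these. The octamer (ATGCAAAT) and the homeodomain core (TAATTA) are in none of the 8 windows and in 1.55% and 4.01% of all windows. These matches are a description of letters, not of binding.

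The HindIII site in the PAX3 window is the end of its bait: the annotated start lies 44 bases inside the fragment, so the upstream part of the window is in the neighbouring fragment. Of all windows, 5.28% hold such a site. All 221 distinct fragments that serve as PAX baits or as their contacts have a HindIII site at both ends in GRCh37. The ends of the PAX6 bait and of the contact with its highest NEC score are shown as an example, on the plus strand with the site in capitals.
PAX6 bait, chr11:31835028-31835087: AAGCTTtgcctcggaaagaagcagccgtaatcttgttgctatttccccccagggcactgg
PAX6 bait, chr11:31840408-31840467: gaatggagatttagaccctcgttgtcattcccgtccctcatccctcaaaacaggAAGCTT
PAX6 contact in DCDC1, chr11:31261563-31261622: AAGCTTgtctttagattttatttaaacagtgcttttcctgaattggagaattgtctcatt
PAX6 contact in DCDC1, chr11:31263318-31263377: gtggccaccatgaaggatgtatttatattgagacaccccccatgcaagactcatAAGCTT

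Expression of the family rose from near nothing in ESCs to clear transcription of 6 members in NECs. PAX6 and PAX3 reached the highest levels, PAX8, PAX7, PAX5 and PAX2 lower ones, and PAX4 was not seen in either NEC library. PAX1 had 29 counts in NEC replicate 1 and 1 in NEC replicate 2. Differences were tested with edgeR's quasi-likelihood test, and calls required p below 0.05 after Benjamini-Hochberg adjustment, with a log2 fold change beyond 1.5 in either direction. Of all genes tested, 11.4% were called higher in NECs and 9.68% lower. Filtering on low counts left 6 members, all of which were called higher. This count is no support in itself, since PAX2, PAX3, PAX7 and PAX8 passed the filter only through their NEC counts. Of all 1082 tested genes that passed in this way, 800 (73.9%) were called higher. Among tested genes with 3 counts or fewer in both ESC libraries, 265 of 265 were called higher. Levels are given as CPM, counts per library size scaled by TMM.

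PAX6, which drives neural progenitor and eye programmes, had 31 and 28 counts in ESC replicates 1 and 2, and 1848 and 1304 in NEC replicates 1 and 2. The cell types did not overlap, and both NEC libraries were far above both ESC libraries. Its level was 1.39 ± 0.36 CPM in ESCs and 69.7 ± 23.8 CPM in NECs (SD, n = 2). It rose by 5.67 on the log2 scale (SE 0.33, edgeR adjusted p = 5.39e-05). Reads were counted without strand, and the PAX6 row overlaps RCN1, a gene of a calcium-binding protein on the opposite strand, by 5571 bp. RCN1 itself had 4106 and 5835 counts in ESCs and 7089 and 7918 in NECs. The part of this overlap in the PAX6 counts was not tested.

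PAX3, which patterns the dorsal neural tube and specifies neural crest, had 5 and 8 counts in ESCs and 1416 and 441 in NECs. The NEC libraries differed from each other by 3.71-fold in CPM, yet both stood well above the ESC libraries. Its level was 0.294 ± 0.0415 CPM in ESCs and 42.1 ± 34.2 CPM in NECs (SD, n = 2), a rise of 7.11 on the log2 scale (SE 0.87, edgeR adjusted p = 0.000781). Without NEC replicate 1 the log2 fold change was 5.89, and without NEC replicate 2 it was 7.77. PAX7, its closest relative, had 0 and 1 counts in ESCs and 272 and 53 in NECs. The NEC libraries again differed, by 5.93-fold. PAX7 was called higher (edgeR adjusted p = 0.00343), and the ratio of summed counts per scaled library size was 308 (95% exact counting interval 54.8 to 12200). Its fitted log2 fold change of 8.02 rests on a single ESC count and ranged from 6.25 without NEC replicate 1 to 10.32 without ESC replicate 2.

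PAX8, a regulator of thyroid, kidney and ear that is also transcribed at the border of midbrain and hindbrain, had 1 and 0 counts in ESCs and 412 and 399 in NECs. The NEC libraries were close to each other, with 17.7 ± 2.2 CPM (SD, n = 2). Its ratio of summed counts was 768 (95% exact counting interval 137 to 30400), and it was called higher (edgeR adjusted p = 3.3e-05). Its fitted log2 fold change was 9.28 and reached 8.23 without ESC replicate 2 and 11.7 without ESC replicate 1. AC016683.6, an annotated gene on the opposite strand, overlaps PAX8 by 51014 bp and had 4 and 3 counts in ESCs and 39 and 38 in NECs. Reads of the overlapping parts cannot be assigned to a strand here.

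PAX2, a regulator of kidney, optic nerve and ear, had no count in either ESC library and 130 and 69 counts in NECs. Both NEC libraries were above both ESC libraries. In summed counts PAX2 was at least 31.4-fold higher in NECs, with the ESC libraries set to a floor of 3 counts each. Its NEC level was 4.44 ± 2.32 CPM (SD, n = 2), and it was called higher (edgeR adjusted p = 0.000981). PAX5, the B cell identity factor that is also active in the embryonic midbrain, had 10 and 13 counts in ESCs and 140 and 200 in NECs. It was the member with a higher level in NEC replicate 2 than in NEC replicate 1 among those tested. Its level was 0.528 ± 0.00278 CPM in ESCs and 7.33 ± 1.1 CPM in NECs (SD, n = 2), a rise of 3.78 on the log2 scale (SE 0.29, edgeR adjusted p = 0.00014).

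PAX1 and PAX4 did not pass the filter and had no test in the main analysis. PAX1 had 0 and 1 counts in ESCs and 29 and 1 in NECs, so that the cell types overlapped and a single NEC library held nearly all of its reads. The ratio of summed counts was 28.4 (95% exact counting interval 4.72 to 1160). PAX4 had 1 count in each ESC library and none in either NEC library, and no fold is given because both cell types were at or below the floor of 3 counts. With no filter on low counts PAX1 was called (log2 fold change 4.58, edgeR adjusted p = 0.00348), whereas DESeq2 gave it an adjusted p of 0.0592.

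**Figure D1:**
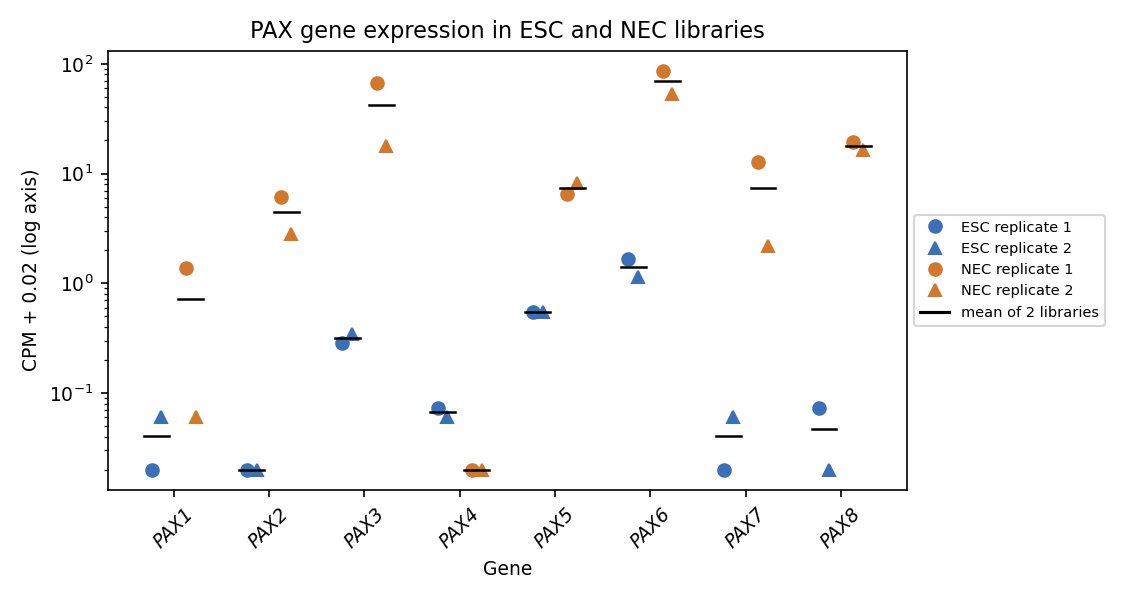
Expression of PAX1 to PAX8 in the 4 RNA-seq libraries, as CPM plus 0.02 on a log axis. Circles are replicate 1, triangles replicate 2 and black bars the mean of 2 libraries. PAX6 and PAX3 have the highest NEC points, and the NEC points of PAX1, PAX3 and PAX7 lie far apart.

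Levels can be ordered between genes only per transcript length. By CPM per kb of the Ensembl canonical transcript, the NEC means were 25.4 ± 8.67 for PAX6, 12.5 ± 10.2 for PAX3, 4.37 ± 0.542 for PAX8, 1.2 ± 1.2 for PAX7, 1.06 ± 0.555 for PAX2 and 0.842 ± 0.126 for PAX5 (SD, n = 2 each). PAX1 followed with 0.131 ± 0.174, and PAX4 was at 0. The NEC values of PAX6 (31.5 and 19.3) and PAX3 (19.7 and 5.32) overlapped, as did those of PAX7, PAX2 and PAX5. Both values of PAX8 (4.75 and 3.99) lay below both of PAX3 and above both of PAX7.

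The spread between the NEC libraries was uneven within the family. PAX3 and PAX7 were at least 3-fold higher in NEC replicate 1, as were 0.708% of 16950 tested genes with more than 3 counts in both NEC libraries. PAX2 was 2.18-fold, PAX6 1.64-fold and PAX8 1.19-fold higher in NEC replicate 1, and PAX5 had a ratio of 0.808. Other genes of the dorsal neural tube and neural crest showed the same order of the libraries. Of 10 such genes, all 10 were higher in NEC replicate 1 and 7 at least 3-fold, among them TFAP2B (10.9-fold), TFAP2A (7.95-fold) and MSX2 (11.6-fold). The largest ratios of this list were those of SOX10 (26.7-fold) and FOXD3 (23.9-fold), picked after their values were seen. In the midbrain and hindbrain list, 5 of 10 genes were at least 3-fold higher in NEC replicate 1, including WNT1 (6.17-fold). Pluripotency genes went the other way, with 0 of 10 higher in NEC replicate 1 and 5 at least 3-fold lower there, such as TDGF1 (ratio 0.164). The part of these differences between the NEC cultures in the PAX values was not tested.

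**Figure D2:**
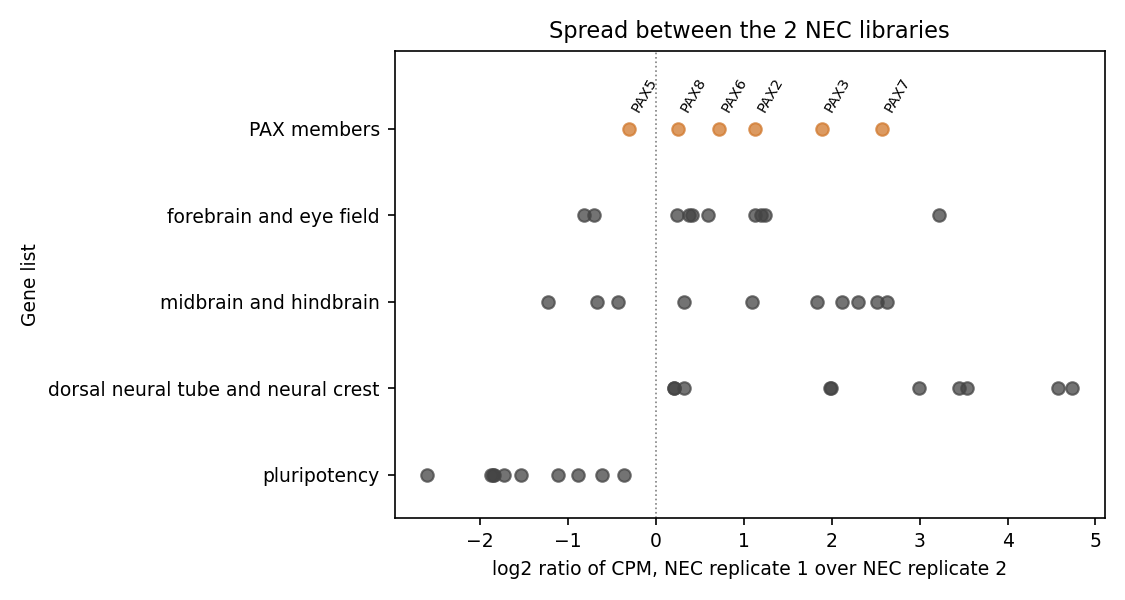
The log2 ratio of CPM between NEC replicates 1 and 2 for PAX members and 4 gene lists, with 1 point per gene that had more than 3 counts in NEC replicate 2. PAX7 and PAX3 lie farthest right among the members, the 10 dorsal genes lie right of 0 and the 10 pluripotency genes left of it.

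PAX proteins act with EYA and DACH proteins and with homeodomain factors such as SIX3 in a network known from eye, ear, kidney and muscle. In this network EYA genes encode coactivators and DACH genes encode co-repressors. Of 12 such genes 11 were tested, 6 were called higher in NECs and none lower. Their median log2 fold change was 1.58, against 0.01 over all genes tested, of which 11.4% were called higher. DACH1 had 23 and 36 counts in ESCs and 960 and 652 in NECs, a rise of 4.72 on the log2 scale (SE 0.33, edgeR adjusted p = 9.78e-05). The smallest called changes were in the coactivators EYA2 (log2 fold change 1.58) and EYA1 (1.62). SIX3 and EYA4 were also called. SIX2, SIX4, SIX5, EYA3 and DACH2 were not, and SIX6 was not tested.

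**Figure D3:**
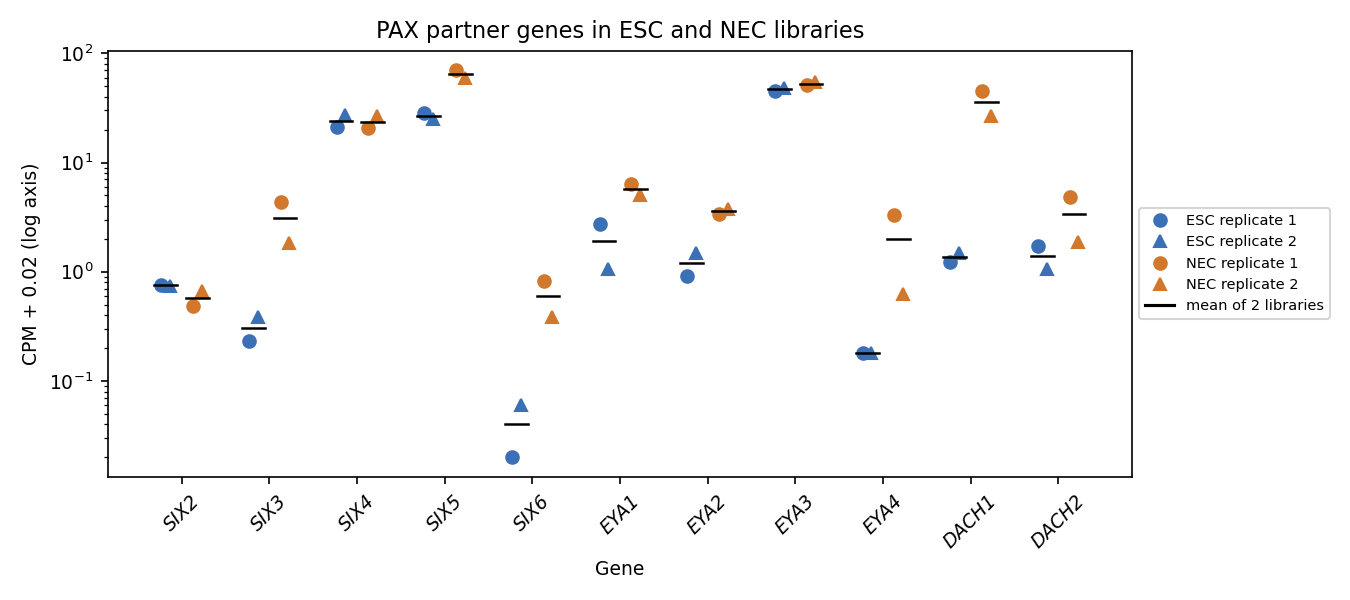
CPM plus 0.02 on a log axis of 11 partner genes in the 4 libraries, with symbols for replicates and black bars for the mean of 2 libraries. DACH1 shows the widest gap between ESC and NEC means, while SIX4 and EYA3 points lie together.

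Genes of the regions and tissues in which PAX genes act were counted in the same way. Here too, genes that passed the filter only through NECs were likely to be called: they were 7 of the 10 tested in the midbrain and hindbrain list, 5 of 9 in the forebrain list, 5 of 10 in the dorsal list and 3 of 11 in the partner list, and each was called higher. In the midbrain and hindbrain list, where PAX2, PAX5 and PAX8 act, 9 of 10 genes were called higher and 1 lower (11.4% and 9.68% of all genes), with a median log2 fold change of 7.17 (5.19 with the genes at 0 in ESCs set to their lower bound). HOXA2, a hindbrain HOX gene, had 0 and 1 counts in ESCs and 732 and 674 in NECs. WNT1, a ligand of the midbrain border, had none in ESCs and 171 and 32 in NECs. FGF8, the signal of that border, fell, with 250 and 488 counts in ESCs and 43 and 79 in NECs. In the forebrain and eye field list, where PAX6 acts, 6 of 9 tested genes were called higher and 1 lower (median 3.34). The summed CPM of this list was 279 and 179 in ESCs and 162 and 117 in NECs. OTX2 and FEZF1, picked after their values were seen, were lower in NECs but missed the fold threshold. Their log2 fold changes were -1.33 and -1.28 (edgeR adjusted p = 0.00321 and 0.00586). EMX2, a cortical homeobox gene, had none in ESCs and 243 and 123 in NECs, whereas HESX1, an anterior forebrain repressor, fell by 1.78 on the log2 scale. In the dorsal list of PAX3 and PAX7, 7 of 10 were called higher and none lower (median 4.49). SOX10 and FOXD3, picked after their values were seen, were not called (edgeR adjusted p = 0.323 and 0.136). SOX10 had 70 and 90 counts in ESCs and 393 and 17 in NECs. FOXD3 had 284 and 399 in ESCs and 186 and 9 in NECs, a log2 fold change of -1.81. TFAP2B had none in ESCs and 339 and 36 counts in NECs.

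In the lists for tissues outside the nervous system, 4 or 5 of 10 genes passed the filter and were tested. Of all genes tested, 11.4% were called higher and 9.68% lower. With 4 or 5 genes tested, a single call cannot be told from these shares. In the list of kidney, ear and thyroid 5 of 10 genes were tested, with 1 called higher and 2 lower (median log2 fold change -0.88). SALL1, a zinc finger gene of kidney and neural progenitors, rose by 1.53 on the log2 scale and LHX1, a homeobox gene of early kidney, fell by 1.91. Of 4 tested B cell genes, EBF1 was called higher and CD79B lower, and 3 of the 10 had no count in either NEC library (median 0.46). In the endocrine pancreas list, 2 of 4 tested genes were called higher (median 1.47), among them INSM1, a zinc finger gene of endocrine and neural precursors, and insulin and glucagon, defining hormones, had no count in any library. In the list of somite, sclerotome and muscle, MEOX1 and NKX3-2 were called higher of 4 tested (median 1.04), and the muscle regulators MYF5, MYOD1 and MYOG had at most 2 counts in any library. These hormones and muscle regulators were picked after their values were seen. SOX1 and POU3F2, neural progenitor factors, had the largest changes among the 7 of 10 neuroectoderm genes called, and the median over all 10 was 2.13. The pluripotency list, in which 9 genes were called lower, had a median of -4.53.

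By distance in log2 CPM over the 4 libraries, SOX6, TBC1D3F and CRTAC1 were nearest to PAX5, and NBPF14, GAS1 and LGI1 were nearest to PAX6. FAM181A, GALP and LRRC7 were nearest to PAX2, and ZNF503, NBPF16 and KCNK10 to PAX3. MYBPC1, RSPO3 and EMX2OS lay closest to PAX7, and LINC00403, FGG and APOA4 to PAX8. The distances were 0.47 for FAM181A and 1.7 for APOA4, the extremes of these 18 genes. The measure covers 4 libraries of 2 cell types and describes likeness of level alone.

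PCHi-C lists contain pairs of a bait and a promoter-interacting region (PIR), each with a CHiCAGO score, which is larger the less likely a contact is under a background that falls with distance. Only pairs with a score of at least 12 are in them, without read numbers, and the depth of a call is therefore unknown. Lists existed for each replicate and for both replicates of a cell type scored together, here called merged. Distances run from the centre of the bait to the centre of the PIR, not from the gene start. PAX promoters had 103 merged PIRs in ESCs and 88 in NECs, and 33 were in both. This was 32.0% of the ESC PIRs (Wilson 95% interval 23.8 to 41.6) and 37.5% of the NEC PIRs (28.1 to 47.9), intervals that cover counting error only. Median PIRs per promoter were 12 in ESCs and 9 in NECs for the 8 PAX baits, against 3 in both for 14924 baits of protein-coding genes. The replicates overlapped little, since 14 of 103 merged ESC PIRs (13.6%) and 20 of 88 NEC PIRs (22.7%) were in both replicate lists. A further 42 (40.8%) and 27 (30.7%) were in neither. The paper states that stringent thresholds lower the overlap seen between conditions. These shares were not set against those of all baits, so they cannot be read as particular to PAX promoters.

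In the replicate lists, the numbers of PIRs overlapped between cell types for 7 of the 8 members. PAX6 had 14 and 8 in ESCs against 8 and 11 in NECs, and 34 and 22 in the merged lists. PAX1 had 7 in each of the 4 replicates, and 15 and 11 merged. PAX3 had 7 and 11 in ESCs and 10 and 9 in NECs, and 7 and 10 merged. PAX7 had 4 and 2 against 2 and 2, and 13 and 7 merged. PAX8 had 1 and 5 against 5 and 4, and 1 and 5 merged. PAX4 had 6 and 2 against 7 and 4, and 5 and 8 merged. PAX5 had 20 in ESC replicate 1 but 4 in ESC replicate 2, and 6 and 5 in NECs, so its merged numbers of 17 and 4 rest on a wide ESC spread.

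Among the 8 baits that hold the gene starts, PAX2 was the one whose replicates did not overlap between cell types, with 9 and 4 PIRs in ESCs against 14 and 10 in NECs, and 11 and 21 merged. Of all baits, 13.1% had both NEC replicates above both ESC replicates and 12.8% the reverse, so 1 of 8 is near the background. At a score of at least 15, PAX2 had 4 and 1 in ESCs and 2 and 0 in NECs, and the direction turned.

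**Figure D4:**
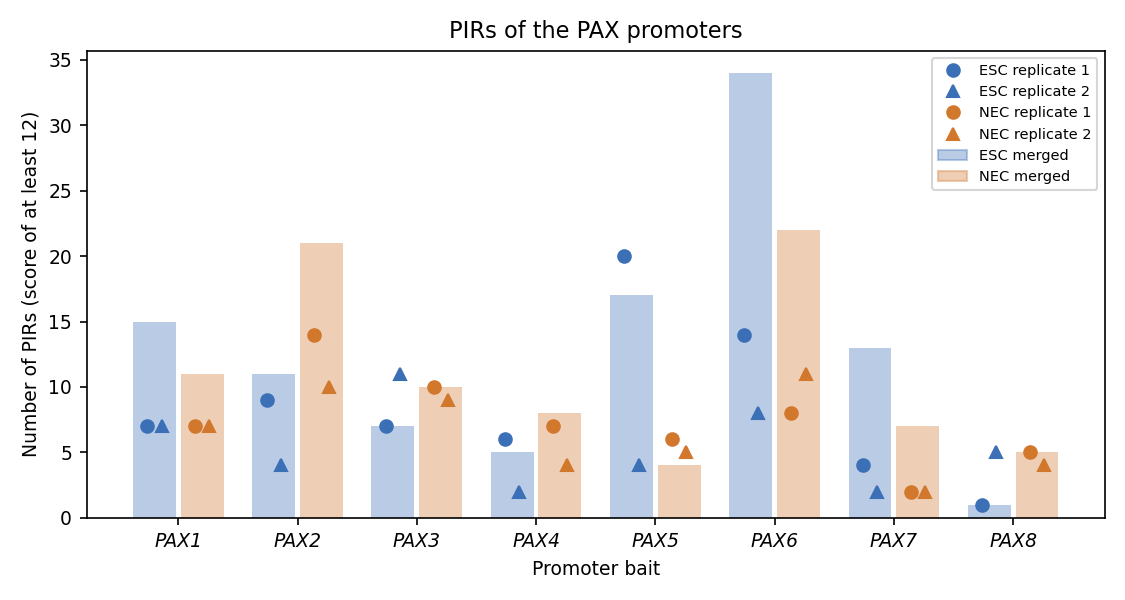
Number of PIRs with a score of at least 12 for each PAX promoter bait. Circles and triangles are replicates 1 and 2 and bars the merged lists. ESC and NEC symbols overlap except for PAX2, where the NEC symbols, 14 and 10, lie above the ESC symbols, 9 and 4.

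In the merged lists PAX6 had the most PIRs among the members, 34 and 22, from the bait of its annotated start at chr11:31835029-31840462. Of its 22 merged NEC PIRs 17 lay downstream, and the PIRs overlapping DCDC1 numbered 8 in ESCs and 12 in NECs. DCDC1 is a doublecortin-domain gene farther downstream than ELP4, IMMP1L and DNAJC24. The introns of ELP4 are known to hold PAX6 enhancers. A fragment in a DCDC1 exon at chr11:31261564-31263372, 575 kb from the PAX6 bait, was called in all 4 replicates. ESC replicates scored 12.75 and 12.64, NEC replicates 17.39 and 17.07, and the merged lists 14.92 and 24.05. Both NEC scores were above both ESC scores. At chr11:31127797-31135904, 706 kb away, scores were 13.83 in ESC replicate 1 and 17.43 and 16.03 in NECs. The ends printed above belong to the fragment at 575 kb.

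Pairs of baits are scored from either end, and the ends of a PAX6 pair often differed. Among genes picked after their values were seen, the bait of ELP4 and IMMP1L contacted PAX6 with scores of 14.93 and 13.15 in ESCs and 18.16 and 17.62 in NECs, when scored from that bait. The DCDC5 bait gave 12.62 and 14.83 in ESCs and 21.41 and 18.19 in NECs. MPPED2 gave 12.24 in ESC replicate 2 and 16.33 and 24.05 in NECs. Not all downstream baits scored higher in NECs. A bait without an annotated gene start, chr11:31222623-31234541, gave 24.51 and 28.42 in ESCs and 21.6 and 21.21 in NECs. The bait of DCDC1 and DNAJC24 gave 16.11 and 12.26 in ESCs and 13.89 and 19.62 in NECs. WT1, on the upstream side, scored 19.89 and 14.5 in ESCs from the WT1 end and was in no NEC list. The PAX6 end saw 5 merged PIRs in WT1 in ESCs and 0 in NECs. WT1, a kidney and gonad factor, had 2 counts in each ESC library and 0 and 1 in NECs. DCDC5 had 13 and 12 counts in ESCs and 92 and 126 in NECs and was called higher (edgeR adjusted p = 0.00044), while MPPED2 was called lower (edgeR adjusted p = 0.0027).

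A further bait at chr11:31826234-31834881 holds the start of the PAX6 canonical transcript and the annotated RCN1 start. Its ESC replicates held 15 and 14 PIRs, its NEC replicates 9 and 8. These did not overlap, as in the 12.8% of all baits with both ESC replicates above both NEC replicates. The merged lists went the other way, with 14 PIRs in ESCs and 16 in NECs. This bait also contacted the PAX6 bait above with scores of 13.82 and 17.46 in ESCs and in neither NEC replicate, and 23.63 and 14.4 in the merged lists.

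PAX3 contacted a bait 25.2 kb upstream, centre to centre, at chr2:223182946-223186906, in all 4 replicates. Its scores were 18.17 and 32.61 in ESCs and 18.27 and 14.77 in NECs, and the ranges overlapped. The bait holds the start of AC010980.2, an annotated gene with 3 and 1 counts in ESCs and 122 and 81 in NECs, called higher (log2 change 5.52 with SE 0.6, edgeR adjusted p = 0.00048). SGPP2, a sphingolipid phosphatase gene 129 kb upstream, was a PIR in both ESC replicates (14.77 and 17.59) and in no NEC list. Conversely FARSB, a tRNA synthetase gene 360 kb upstream, was a PIR in both NEC replicates (12.2 and 18.22) and in no ESC list. Neither gene was called, with log2 fold changes of -1.23 for SGPP2 and -0.43 for FARSB. The bait of AC097461.4, within ACSL3, was called in ESC replicate 2 and in both NEC replicates. Downstream, a fragment 233 kb away scored 12.76 in ESC replicate 1 and 16.45 and 14.7 in NECs. PAX3 also shares its bait with the start of CCDC140, so the calls cannot be assigned to either gene.

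PAX7 had short contacts, most of them inside the gene, with 9 of 13 merged ESC PIRs and 5 of 7 NEC PIRs in its own introns. The highest score was at chr1:18965987-18972304, inside the gene and 11 kb from the bait. It was 12.97 and 17.0 in ESCs, with no call in either NEC replicate, and 25.14 and 15.83 in the merged lists. The most distant shared PIR, 190 kb downstream at chr1:19142905-19152673, was called in ESC replicate 2 (12.66) and in both NEC replicates (13.38 and 12.09).

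PAX2 at chr10:102492885-102503696 contacted distant homeobox genes in ESCs. The bait of NKX2-3, a gut and spleen factor 1200 kb upstream, scored 26.01 and 16.38 in the ESC replicates and was in no NEC list from either end. The neighbouring fragment, chr10:101287801-101292228, was called with PAX2 in both cell types, at 13.8 in ESC replicate 1, 13.38 in NEC replicate 2, and 12.67 and 12.48 merged. NKX2-3 had no count in any library. TLX1, picked after its values were seen, scored 17.12 in ESC replicate 1 alone, and also in that replicate alone (15.33) from its own end. TLX1 had 2 counts in NEC replicate 1 and none elsewhere. The adjacent bait with the TLX1NB start scored 16.06 and 13.57 in ESCs from its own end and was in no NEC list. The LZTS2 bait, from its own end, scored 13.21 in ESC replicate 1 and 18.08 and 17.94 in NECs. Both baits were picked after their values were seen. A fragment at 498 kb downstream was called in both ESC replicates (17.29 and 12.93) and in no NEC list. In NECs alone, and in both replicates, PAX2 contacted fragments at 68.9 kb upstream (13.23 and 12.63), 130 kb downstream (13.02 and 12.25) and 139 kb downstream (15.94 and 13.61). These lie in no protein-coding gene. The highest merged NEC score, 17.93, was 171 kb upstream, where the replicates scored 14.36 in ESC replicate 2 and 15.58 and 14.43 in NECs. The bait holds the starts of 3 PAX2 transcripts, and the canonical start lies in no bait of the lists.

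PAX5 PIRs clustered upstream in ZCCHC7, a zinc finger gene whose introns are known to hold PAX5 enhancers in B cells, with 12 of 17 merged ESC PIRs and 4 of 4 NEC PIRs there. A fragment in a ZCCHC7 intron, chr9:37270267-37277262, was called in all 4 replicates (13.04 and 13.4 in ESCs, 12.19 and 13.74 in NECs). The highest NEC score was in the same gene at 226 kb, with 14.69 in ESC replicate 1 and 14.37 and 20.72 in NECs. Intronic fragments at 217 kb (13.24 and 14.89) and 294 kb (14.98 and 12.81) were called in both ESC replicates and no NEC list. ZCCHC7 itself, picked in the same way as the ELP4 bait, was not called (log2 fold change 0.17). A second bait with PAX5 transcript starts, chr9:37000340-37008401, was credited with 31 and 9 PIRs in the ESC lists, and 10 and 6 in the NEC lists.

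PAX8 had 1 merged PIR in ESCs and 5 in NECs, all downstream of its start. The bait of AC016683.6, 73.2 kb downstream, scored 14.14 and 17.3 in ESCs and 20.22 in NEC replicate 2. This is the gene that overlaps PAX8, and it was called higher (log2 change 3.33 with SE 0.44, edgeR adjusted p = 0.000993). The PSD4 bait, 123 kb downstream, scored 14.34 in ESC replicate 2 and 19.43 and 12.02 in NECs. PSD4, a guanine nucleotide exchange factor gene, had 15 and 20 counts in ESCs and 48 and 52 in NECs, and was not called at a log2 fold change of 1.43. A bait without an annotated gene start, 196 kb downstream, was called in both NEC replicates (13.51 and 14.07) and in no ESC list.

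PAX1 at chr20:21679033-21688263 contacted the homeobox genes NKX2-2 and NKX2-4 to its upstream side, which were picked after their values were seen. Scored from the NKX2-2 bait, the pair had 16.64 and 16.49 in the ESC replicates and no call in either NEC replicate, and 27.21 and 13.23 in the merged lists. From the NKX2-4 bait it had 13.51 and 13.23 in ESCs, no call in either NEC replicate, and 18.15 and 13.35 merged. NKX2-2 specifies ventral neural and endocrine cells. Neither gene exceeded 2 counts in any library. Scored from the PAX1 end, all 11 merged NEC PIRs of PAX1 lay downstream, compared with 5 of 15 in ESCs. Upstream PIRs were called in single NEC replicates, at 1020 kb in replicate 1 (12.23) and at 1340 kb in replicate 2 (12.97). The highest NEC score was 401 kb downstream, at chr20:22081513-22087198, called in both NEC replicates (13.34 and 15.15), with a merged ESC score of 12.3. At 873 kb, next to FOXA2, a fragment was called in both ESC replicates (13.44 and 16.75) and in NEC replicate 2 (15.64). FOXA2, a floor plate and endoderm factor, was called lower (log2 fold change -2.13, edgeR adjusted p = 0.00987), and was also picked after its values were seen. The PAX1 bait also holds the start of AL035562.1, so its calls cannot be assigned to either gene.

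PAX4 has a bait of 530 bp that holds the start of 1 transcript, and its canonical start lies in no bait of the lists. Its shared PIRs were close, 9.19 and 12.6 kb downstream, the latter in FSCN3, a fascin gene. The 6 other merged NEC PIRs lay 488 to 626 kb upstream, each in a single NEC replicate, and included the LEP bait, picked after its values were seen, with 13.81 in NEC replicate 1 alone. LEP, the leptin gene, had 1 count in 1 ESC library.

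**Figure D5:**
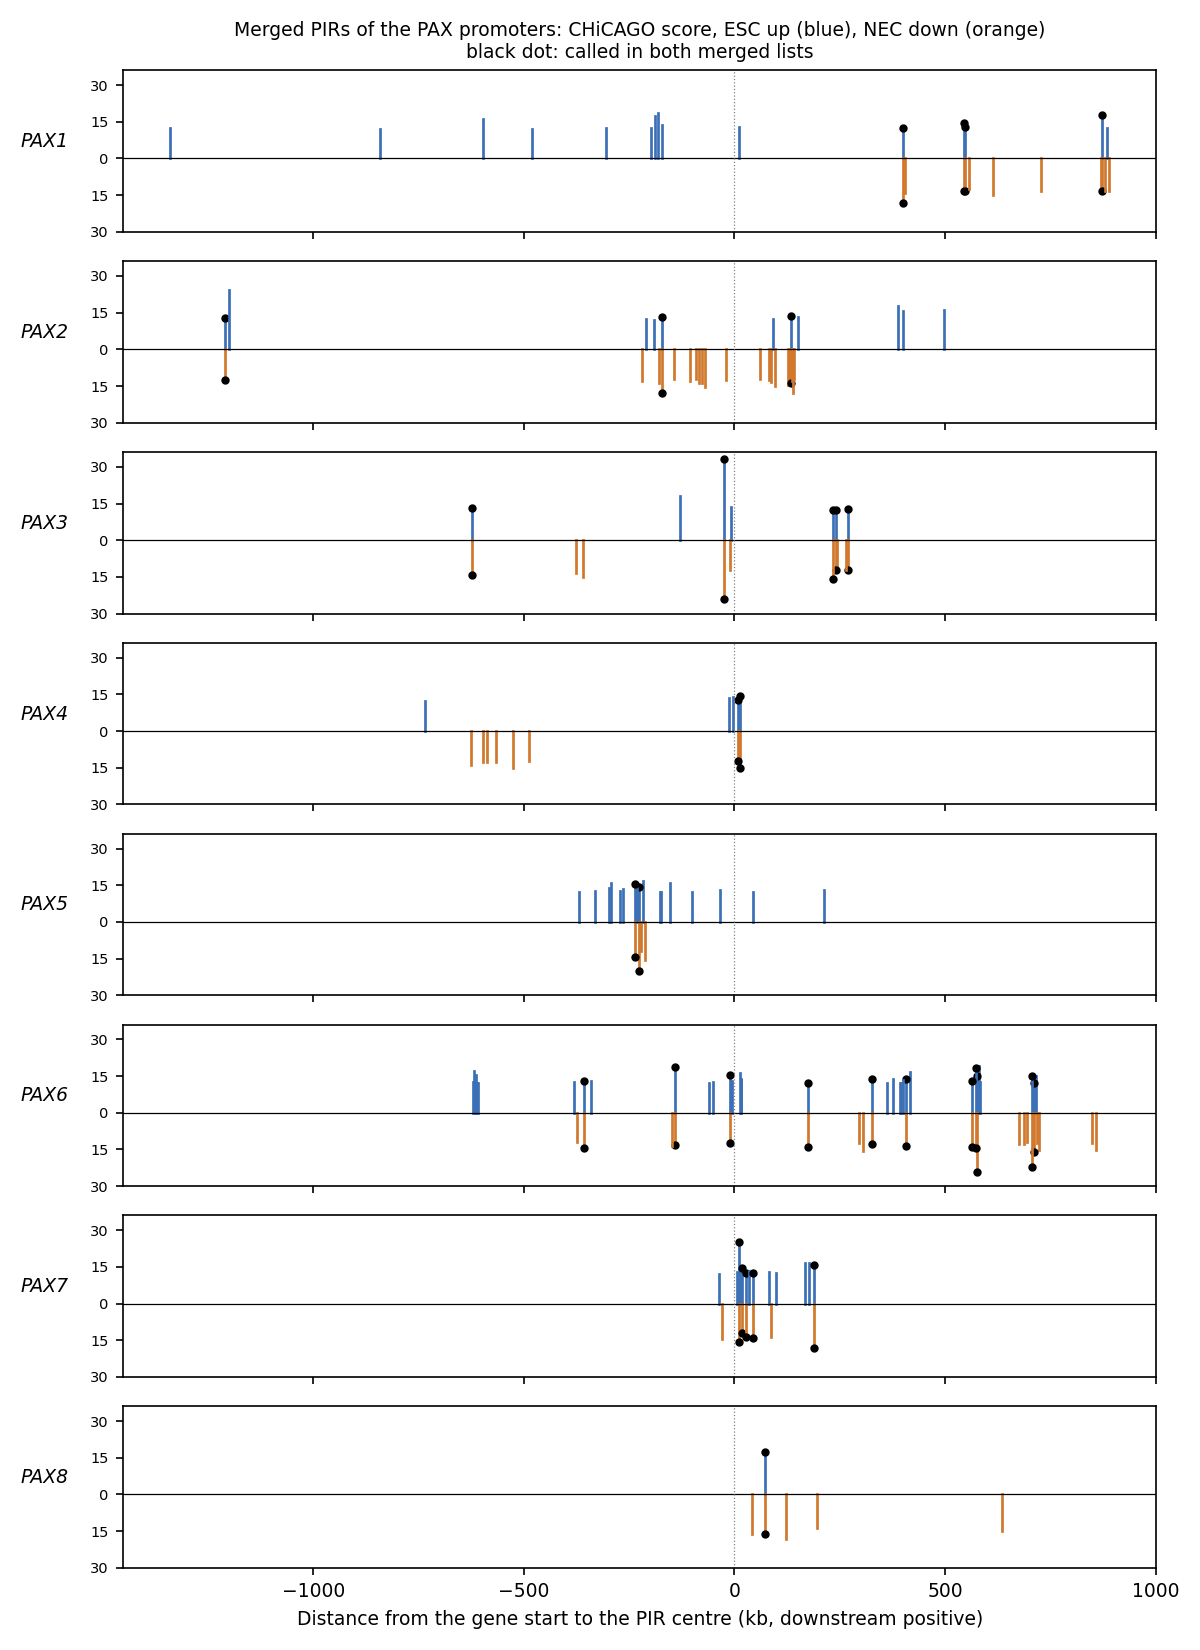
Merged PIRs of the 8 PAX promoters, scored from the PAX bait, by distance in kb (downstream positive). The CHiCAGO score is the line length, with ESC up and NEC down. Distances run from the bait centre to the PIR centre, although the axis label names the gene start. Black dots mark the 33 PIRs in both lists. PAX1 contacts lie on both sides in ESCs and downstream in NECs, 15 of 17 ESC and 4 of 4 NEC contacts of PAX5 lie upstream, and those of PAX8 lie downstream.

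Over the family, 158 fragments were merged PIRs in either cell type. Of these 74 lay upstream of the gene start, 64 downstream of the gene and 20 inside it. By annotation 44 overlapped an exon of a protein-coding gene, 50 an intron alone and 64 no protein-coding gene. The 6 members called higher in NECs differed in the merged PIRs of their gene-start baits. PAX2, PAX3 and PAX8 had more in NECs than in ESCs, and PAX5, PAX6 and PAX7 had fewer. For PAX6 the direction depended on the bait, since the bait of its canonical start had 14 in ESCs and 16 in NECs. The relation between PIR numbers and expression was not tested.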

How the data were processed

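The authors trimmed RNA-seq reads with trim galore, mapped them to GRCh37 with TopHat2 2.0.8b and Bowtie 1.0.0 (submitters' processing notes) and counted reads per Ensembl gene without strand. The deposited values are whole-number counts. For PCHi-C, the authors scored HindIII fragment pairs with CHiCAGO, and the deposited score lists hold pairs at 12 or more, for each replicate and for both combined. Read numbers per pair are not given.

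Counts were tested with edgeR 4.0.16 in R 4.3.3 (TMM, filterByExpr with a minimum count of 10, quasi-likelihood test, prior count 0.125 for log2 fold changes), without a replicate block. Calls required p below 0.05 after Benjamini-Hochberg adjustment and a log2 fold change beyond 1.5 in either direction. The authors used DESeq2, and DESeq2 1.42.0 was an alternative. The tests were run on simulated data first. Interactions were analysed in Python 3.11.15 with pandas 2.3.3, numpy 2.4.6 and scipy 1.17.1, and figures drawn with matplotlib 3.10.9. PIRs were shared when bait and PIR were the same fragments. Gene starts came from the count table, transcript starts and features from the GRCh37 annotation.

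Members and gene lists were chosen with earlier results of these data known. Named genes were all 8 members, up to 2 called genes at each extreme of log2 fold change in a list, the 3 genes nearest to each called member in log2 CPM (0.5 added), genes whose start lay in a PIR called in both replicates of a cell type, and the PIRs with the highest merged scores. Others are said to be picked after their values were seen. Alternatives were other normalizations, filters and tests, a replicate block, a score of at least 15, other definitions of PIRs and promoters, and leaving out each replicate. Conventional Hi-C was not analysed here, and some genes of the lists are counted but not reported here by name. P-values measure the spread between 2 biological replicates, and the binomial and count intervals cover counting error only.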

Additional observations from a re-analysis of the deposited data

How the results depend on the processing

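All 6 called PAX members stayed called under every alternative run, and the number called was 6 to 7 when 1 replicate was left out, with PAX1 added without NEC replicate 2. Such a fit takes its spread from the other cell type alone, and PAX1 then rests on the NEC library with 29 counts. Log2 fold changes of called members ranged from 9.0 to 10.04 for PAX2, 5.89 to 7.77 for PAX3 and 3.62 to 3.93 for PAX5. They ranged from 5.28 to 5.98 for PAX6, 6.25 to 10.32 for PAX7 and 8.23 to 11.7 for PAX8. The PAX2 range is no measure of its size, since both ESC libraries had 0 counts. In summed counts PAX2 was at least 31.4-fold higher. The highest PAX7 and PAX8 values come from fits whose ESC library had 0 counts of the gene. Genes of the lists called numbered 53, 52 to 55 without 1 replicate, 58 with no filter and 62 with the adjusted p alone. Correlation between the deviations of same-numbered ESC and NEC libraries was 0.0485, so replicate numbers were not taken as pairs. With the replicate block 1987 genes were called higher and 1711 lower, against 1997 and 1700 without it, and 6 PAX members and 54 list genes were called.

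At a score of at least 15, merged PIRs of PAX promoters fell to 28 in ESCs, 22 in NECs and 5 shared, and the mean difference of PAX2 (NEC minus ESC) went from 5.5 to -1.5 PIRs. When every bait with a transcript start was used, shared PIRs rose to 54 and the totals to 150 in ESCs and 129 in NECs. When PIRs within 10 kb were counted, shared PIRs rose to 60. Pairs of baits called from either end, chosen after seeing the data, gave 122, 103 and 48. Without ESC replicate 1 the PAX5 difference went from -6.5 to 1.5, and without ESC replicate 2 to -14.5. The cause of these moves was not tested. PAX1 and PAX4 had too few counts for the main test.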
